A study of Homo sapiens with 15 samples.

Results

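The genes for the 3 D-type cyclins, their kinase partners, some CDK inhibitors and some pocket proteins were followed in A549, a human lung adenocarcinoma cell line. Other inhibitor and pocket protein genes, among them CDKN1A, CDKN2A and RBL1, were read in the gene lists given below. The 10 genes were CCND1, CCND2 and CCND3, CDK4 and CDK6, CDKN1B, CDKN1C and CDKN2B, and RB1 and RBL2. Each was read through the probe set that the platform's probe table pairs with that symbol alone, and each had 1 such probe set. They were 10 of 18377 genes on the array, and all 10 passed the filter on dim genes that left 16005 genes for testing. RNA from 15 cultures was measured, 1 array per culture, in 5 groups of 3. Normoxic vehicle cultures received 0.1% DMSO and were never made hypoxic. Hypoxic vehicle cultures received 0.1% DMSO, and the 3 compound groups received 10 µM of BB2-125, BB2-162 or BB2-282 in the same DMSO. In these 4 groups, hypoxia in a gas-pack pouch began 6 h after treatment and lasted 42 h. The compounds are known by code names, and the design text describes them as inhibitors of transcription. Since the compounds were used in hypoxic cultures alone, an effect there cannot be told apart from an effect the compound has in any oxygen. All cultures are of 1 cell line.

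D-type cyclins carry growth signals into the cell cycle: each binds CDK4 or CDK6, and the active kinase phosphorylates the retinoblastoma protein RB and its relatives, among them p130. Unphosphorylated pocket proteins hold E2F factors and keep genes for DNA replication silent, and phosphorylation frees them. The inhibitors p15 and its INK4 relatives bind CDK4 and CDK6 and displace the cyclin. The inhibitors p27 and p57 bind cyclin-CDK complexes, mainly those of CDK2, and p27 is known to accumulate in cells that leave the cycle. Much of the control of these proteins lies in their stability, which an array of transcripts does not measure.

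Promoters are shown for 3 genes, which were picked by hand together with their motifs. Size of change does not single them out, since CDK6 fell more with hypoxia (-1.38 ± 0.14) than CDK4 (-0.86 ± 0.13). CCND3 had the largest change with hypoxia of the 10 genes. CDKN1B rose with hypoxia and fell with all 3 compounds. CDK4 fell with hypoxia, with BB2-162 and with BB2-282. The sequences are RefSeq's for GRCh38.p14, each running 5′ to 3′ on the gene's strand from 250 bases before to 50 bases after an annotated start. Capitals mark 1 motif in each: CACGTG (the E box read by MYC and MAX) for CDK4, CCAAT or its reverse complement ATTGG for CDKN1B, and GGGCGG or CCGCCC (the GC box read by SP1) for CCND3. The CDK4 window is chr12:57752261-57752560 on the minus strand, the CDKN1B window is chr12:12717118-12717417 on the plus strand, and the CCND3 window, the second of 3 listed starts, is chr6:41941759-41942058 on the minus strand.
CDK4: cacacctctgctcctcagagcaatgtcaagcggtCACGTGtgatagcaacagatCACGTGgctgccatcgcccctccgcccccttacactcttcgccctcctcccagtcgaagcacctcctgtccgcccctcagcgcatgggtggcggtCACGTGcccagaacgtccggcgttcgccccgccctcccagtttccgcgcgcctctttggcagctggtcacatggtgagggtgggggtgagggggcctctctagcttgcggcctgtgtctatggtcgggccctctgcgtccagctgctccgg
CDKN1B: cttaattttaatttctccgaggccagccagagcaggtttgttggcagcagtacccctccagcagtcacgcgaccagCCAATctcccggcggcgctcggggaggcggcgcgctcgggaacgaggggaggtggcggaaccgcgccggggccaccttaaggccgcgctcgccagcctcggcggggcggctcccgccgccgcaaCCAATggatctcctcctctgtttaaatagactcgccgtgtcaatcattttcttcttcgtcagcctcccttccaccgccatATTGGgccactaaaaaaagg
CCND3: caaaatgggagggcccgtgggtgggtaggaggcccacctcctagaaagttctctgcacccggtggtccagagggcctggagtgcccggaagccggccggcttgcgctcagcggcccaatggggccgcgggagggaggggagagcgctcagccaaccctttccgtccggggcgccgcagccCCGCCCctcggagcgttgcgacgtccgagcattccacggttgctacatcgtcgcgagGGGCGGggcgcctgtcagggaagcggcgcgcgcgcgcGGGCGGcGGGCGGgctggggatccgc

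The CDK4 window held 3 E boxes, and at least 1 was present in 7.26% of 35116 RefSeq promoters of this length. CACGTG is its own reverse complement and holds ACGTG on both strands, a core that the hypoxia-inducible factor (HIF) can also read, so the 6 matches to ACGTG there are these same 3 places. ACGTG occurred in 21.4% of promoters and GCGTG, its other form, in 36.5%. The CDKN1B window held 3 CCAAT boxes (34.6% of promoters held one) and the CCND3 window 4 GC boxes (45% held one). The window was picked by hand from the 3 CCND3 starts, by no stated rule. The other starts listed held 5 and 0 GC boxes, and the array signal is not assigned to a start. The table listed 7 of the 10 genes with 11 starts, and CCND1, CCND2 and CDKN1C were not among them. Of the 11 windows, 2 held an E box, those of CDK4 and of 1 CDK6 start. None of the 11 windows held TTTNNCGC, one form of the E2F site, on either strand, which 6.89% of promoters held. The RB1 window lay at chr13:48476200-48476499, and starts that were not listed were not scanned, for RB1 or any other gene. The RBL2 window at chr16:53434221-53434520 held TTTGAA, the cell cycle homology region, found in 15.2% of promoters. These are matches of letters in a short window, not measured binding.

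The arrays had median intensities between 74.91 and 84.6, and precision is limited by their number. The epithelial markers were 7 of 7 above the dim level in every group, with KRT8 at a mean log2 intensity of 12.38 to 13.27. Of 6 fibroblast markers, 3 lay above it, with COL1A1 at 7.52 to 7.87, and DCN, LUM and PDGFRA lay below it. Of 6 leukocyte markers, CD3E, CD14, ITGAM and CD68 lay above it and the defining PTPRC, with LYZ, below it. CD68, which encodes a lysosomal protein, read 8.95 in normoxic vehicle and 11.28 in hypoxic vehicle, and the part of other cell types in the results was not tested. VEGFA, a textbook target of HIF, read 7.76 in normoxic vehicle and 11.41 in hypoxic vehicle. BB2-162 replicate 1 stood apart, deviating from its group by a root mean square of 0.221 log2 units where the other arrays had 0.094 to 0.163, and results that turn on it are given without it. The labels name the cultures biological replicates and say no more, so the p-values rest on whatever spread, possibly technical, lies between them. In a bulk culture, fewer cells that express a gene and less RNA per cell cannot be told apart. A gene is written to have risen or fallen only where limma's adjusted p was under 0.05, and errors after ± are standard errors on the log2 scale with 3 arrays per group.

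Hypoxia without compound lowered 6 of the 10 genes and raised 2. Over all genes 57.5% were called, 28.2% higher and 29.4% lower. The median change of the 10 genes was -0.42 on the log2 scale, against 0.09 for all genes tested. Because the 10 genes were chosen with earlier results of these data known, such comparisons with all genes are descriptions. Of 8 housekeeping genes read the same way, 5 fell with hypoxia and 3 did not pass, with a median of -0.30. BB2-125 against hypoxic vehicle raised 1 and lowered 4 (all genes: 28.4% called, 13.3% higher, 15% lower; median of the 10 genes -0.14). BB2-162 raised 2 and lowered 5 (36.1% called, 15.7% higher, 20.4% lower; median -0.38). BB2-282 raised 2 and lowered 2 (13.6% called, 5.65% higher, 7.94% lower; median -0.01). The comparisons with hypoxic vehicle share its 3 arrays. With BB2-162, 43.4% of all called genes were higher, and 28.2% once each array was centred on its median.

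Of the D cyclins, CCND3 fell most in hypoxia and CCND1 set BB2-282 apart from the other compounds. CCND3, the cyclin D3 gene, had log2 intensities of 11.68, 11.91 and 11.87 in normoxic vehicle and 9.06, 8.98 and 8.81 in hypoxic vehicle. It read 9.87, 9.60 and 9.73 with BB2-125, 9.14, 8.85 and 8.84 with BB2-162, and 9.18, 9.08 and 9.07 with BB2-282. Every normoxic array lay far above every hypoxic one, and the BB2-125 arrays lay above the other hypoxic arrays. CCND3 fell by 2.87 ± 0.11 with hypoxia, a 7.3-fold difference (adjusted p = 2.23e-13). BB2-125 raised it by 0.78 ± 0.11 (1.72-fold, adjusted p = 2.84e-05), which left it 2.09 below normoxic vehicle, as a change of -2.09 ± 0.11. With BB2-162 the change was -0.01 ± 0.11 (95% interval -0.24 to 0.23, adjusted p = 0.972) and with BB2-282 it was 0.16 ± 0.11 (-0.07 to 0.39, adjusted p = 0.421). In the order of group means, BB2-162, hypoxic vehicle and BB2-282 were neighbours that did not pass a test against each other.

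CCND1, the cyclin D1 gene, read 10.42, 10.53 and 10.50 in normoxic vehicle and 10.10, 10.11 and 10.16 in hypoxic vehicle. It read 9.51, 9.61 and 9.57 with BB2-125, 9.56, 9.45 and 9.58 with BB2-162, and 10.64, 10.56 and 10.67 with BB2-282. The BB2-125 and BB2-162 arrays were the lowest of the 15 and overlapped each other, and the BB2-282 arrays were the highest. CCND1 fell by 0.36 ± 0.09 with hypoxia (1.28-fold, adjusted p = 0.00144). It fell further with BB2-125, by 0.56 ± 0.09 (adjusted p = 5.85e-05), and with BB2-162, by 0.59 ± 0.09 (adjusted p = 3.54e-05). BB2-282 raised it by 0.50 ± 0.09 (1.41-fold, adjusted p = 0.000676). The mean with BB2-282 was then 0.14 ± 0.09 from normoxic vehicle (95% interval -0.04 to 0.32, adjusted p = 0.154), a difference that passed with quantile normalization (0.29, adjusted p = 0.00699).

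CCND2, the cyclin D2 gene, gave log2 intensities of 5.34 to 5.70 in normoxic vehicle, 5.54 to 6.00 in hypoxic vehicle, 5.87 to 5.95 with BB2-125, 5.95 to 6.13 with BB2-162 and 5.85 to 6.11 with BB2-282. The vehicle groups overlapped, and no step between neighbours in the order of group means passed. Against normoxic vehicle, CCND2 was higher with BB2-125 (0.43 ± 0.12, adjusted p = 0.0055), BB2-162 (0.60 ± 0.12, adjusted p = 0.000292) and BB2-282 (0.50 ± 0.12, adjusted p = 0.00175). The change was 0.29 ± 0.12 with hypoxia (adjusted p = 0.0507), and against hypoxic vehicle it was 0.14 ± 0.12 with BB2-125 (adjusted p = 0.461), 0.31 ± 0.12 with BB2-162 (adjusted p = 0.0567) and 0.21 ± 0.12 with BB2-282 (adjusted p = 0.328). The hypoxia change passed with array weights (adjusted p = 0.0113), without normoxic vehicle replicate 1 (0.0125) and without hypoxic vehicle replicate 2 (0.0128). That with BB2-162 passed with array weights (adjusted p = 0.023), without hypoxic vehicle replicate 3 (0.0146) and without BB2-162 replicate 1 (0.0292).

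**Figure D1:**
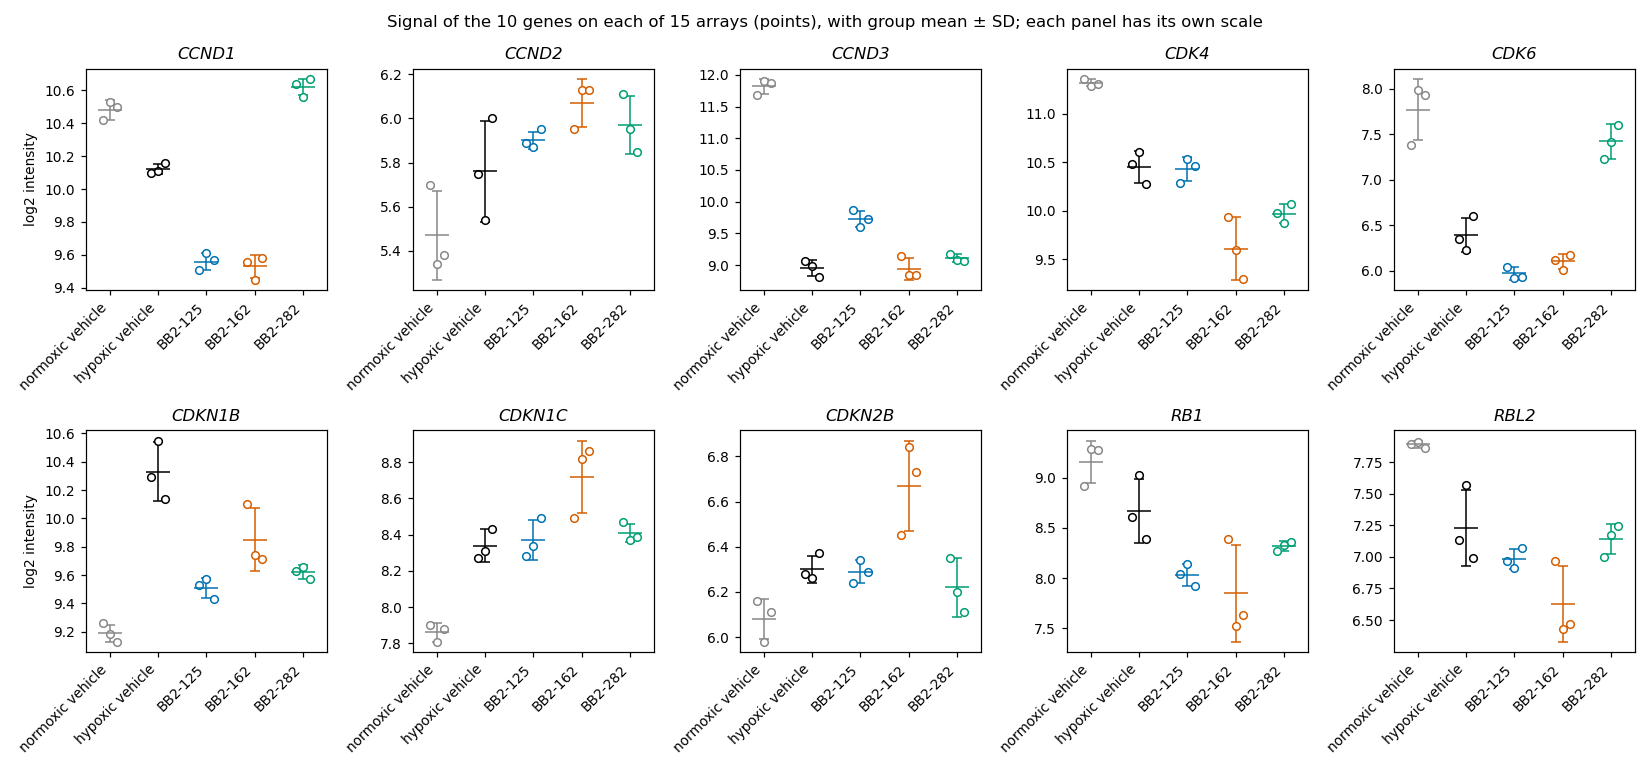
Log2 intensity (y axis, own scale in each panel) of the 10 genes on each of the 15 arrays (points) by group (x axis), with bars for the group mean and SD of 3 arrays. CCND3 lies at 11.82 in normoxic vehicle and at 8.94 to 9.73 in the hypoxic groups, whereas CCND1 and CDK6 are high again with BB2-282.

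The kinase genes CDK4 and CDK6 both fell in hypoxia and then parted with the compounds. CDK4 read 11.36, 11.28 and 11.30 in normoxic vehicle and 10.48, 10.60 and 10.28 in hypoxic vehicle. It read 10.29, 10.53 and 10.46 with BB2-125, 9.93, 9.60 and 9.30 with BB2-162, and 9.98, 9.87 and 10.07 with BB2-282. The BB2-125 arrays overlapped hypoxic vehicle, the BB2-282 arrays lay below it, and the BB2-162 arrays spread widely and overlapped BB2-282. CDK4 fell by 0.86 ± 0.13 with hypoxia (1.82-fold, adjusted p = 1.86e-05), by a further 0.84 ± 0.13 with BB2-162 (1.79-fold, adjusted p = 8.80e-05) and by 0.48 ± 0.13 with BB2-282 (1.39-fold, adjusted p = 0.0217). With BB2-125 its change was -0.02 ± 0.13 (95% interval -0.30 to 0.26, adjusted p = 0.935). The BB2-282 call ended on leaving out replicate 1 (adjusted p = 0.0784) or 2 (0.105) of hypoxic vehicle, or replicate 1 (0.0606) or 2 (0.103) of BB2-282.

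CDK6 read 7.38, 7.99 and 7.93 in normoxic vehicle and 6.35, 6.23 and 6.60 in hypoxic vehicle. It read 6.04, 5.92 and 5.93 with BB2-125, 6.12, 6.01 and 6.17 with BB2-162, and 7.23, 7.41 and 7.60 with BB2-282. The BB2-282 arrays lay above all other hypoxic arrays and overlapped the lowest normoxic array. CDK6 fell by 1.38 ± 0.14 with hypoxia (2.6-fold, adjusted p = 1.46e-07), and BB2-282 raised it by 1.02 ± 0.14 (2.03-fold, adjusted p = 0.000111). It fell by 0.43 ± 0.14 with BB2-125 (adjusted p = 0.0325), and with BB2-162 its change was -0.29 ± 0.14 (adjusted p = 0.121; -0.38, adjusted p = 0.037, with quantile normalization). The BB2-125 call ended on leaving out replicate 1 (adjusted p = 0.058) or 3 (0.15) of hypoxic vehicle, or replicate 2 (0.086) or 3 (0.0911) of BB2-125.

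Of the inhibitors among the 10 genes, CDKN1B changed in all 4 of these comparisons. CDKN1B, which encodes p27, read 9.26, 9.18 and 9.13 in normoxic vehicle and 10.29, 10.55 and 10.14 in hypoxic vehicle. It read 9.53, 9.57 and 9.43 with BB2-125, 10.10, 9.74 and 9.71 with BB2-162, and 9.63, 9.66 and 9.57 with BB2-282. All compound arrays lay between the vehicle groups, and BB2-162 replicate 1 lay nearest to hypoxic vehicle. CDKN1B rose by 1.14 ± 0.12 with hypoxia (2.2-fold, adjusted p = 1.23e-07). It fell by 0.82 ± 0.12 with BB2-125 (adjusted p = 3.18e-05), by 0.48 ± 0.12 with BB2-162 (adjusted p = 0.00409) and by 0.71 ± 0.12 with BB2-282 (adjusted p = 0.000552). It was the only one of the 10 genes that fell with every compound, and these calls remained under every alternative run. The rise and the falls share the hypoxic vehicle arrays with opposite sign, so the 4 calls are not independent.

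CDKN1C and CDKN2B moved less. CDKN1C, which encodes p57, read 7.81 to 7.90 in normoxic vehicle, 8.27 to 8.43 in hypoxic vehicle, 8.28 to 8.49 with BB2-125, 8.49 to 8.86 with BB2-162 and 8.37 to 8.47 with BB2-282. It rose by 0.47 ± 0.11 with hypoxia (adjusted p = 0.000805) and by 0.39 ± 0.11 with BB2-162 (adjusted p = 0.00858). With BB2-125 the change was 0.03 ± 0.11 and with BB2-282 it was 0.07 ± 0.11, and neither passed. CDKN2B, which encodes p15, read 5.98 to 6.16 in normoxic vehicle, 6.26 to 6.37 in hypoxic vehicle, 6.24 to 6.34 with BB2-125, 6.45 to 6.84 with BB2-162 and 6.11 to 6.35 with BB2-282. Its change with hypoxia was 0.22 ± 0.11 (adjusted p = 0.0805; adjusted p = 0.0448 with array weights), and BB2-162 raised it by 0.37 ± 0.11 (adjusted p = 0.0124). Its BB2-162 arrays lay above all the others. Its means, 6.30 in hypoxic vehicle and 6.67 with BB2-162, lay near those of CDKN2A (6.17 and 6.72), a gene that A549 is known to lack. Changes with BB2-125 (-0.02 ± 0.11) and BB2-282 (-0.09 ± 0.11) did not pass.

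Both BB2-162 calls ended in a fit of the compared groups alone (adjusted p = 0.061 for CDKN1C and 0.0673 for CDKN2B), and that of CDKN2B also without BB2-162 replicate 2 (0.0683). Some low signals of unrelated kinds were also higher in the BB2-162 arrays. Others were not, such as CCNE2, with a mean of 4.36 in hypoxic vehicle and 4.31 with BB2-162. The dim level, each array's 25th percentile, averaged 4.60 in normoxic vehicle, 4.70 in hypoxic vehicle, 4.76 with BB2-125, 4.84 with BB2-162 and 4.72 with BB2-282. All 6 endothelial markers passed the filter on dim genes, though PECAM1 in normoxic vehicle (4.56) and TEK in hypoxic vehicle (4.68) read just under the dim level. Their summed log2 signal was 8.20 to 8.28 in normoxic vehicle, 8.35 to 8.48 in hypoxic vehicle and 8.49 to 8.86 with BB2-162. Of these 6 markers 5 rose between normoxic vehicle and BB2-162, where 42.4% of all genes were called higher. Between hypoxic vehicle and BB2-162 1 rose, near the share over all genes (15.7% higher). CDKN2A, the neighbour of CDKN2B that A549 is known to lack, still read a mean log2 intensity of 6.17 in hypoxic vehicle and 6.72 with BB2-162, and was called higher by 0.55 ± 0.15 (adjusted p = 0.00907; call ended without BB2-162 replicate 2). The part of such low signal in the changes of CCND2, CDKN1C, CDKN2B and CDK6, whose mean was 5.97 with BB2-125, was not tested. CDKN1C was the brightest of these on the arrays, between their percentiles 73.3 and 88.5.

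The pocket protein genes RB1 and RBL2 fell with hypoxia and again with BB2-162. RB1, the retinoblastoma gene, read 8.92, 9.29 and 9.28 in normoxic vehicle and 8.61, 9.03 and 8.39 in hypoxic vehicle. It read 8.04, 8.14 and 7.92 with BB2-125, 8.39, 7.52 and 7.63 with BB2-162, and 8.27, 8.33 and 8.36 with BB2-282. Hypoxic vehicle replicate 2 lay within the normoxic range, and BB2-162 replicate 1 lay far above the other BB2-162 arrays. RB1 fell by 0.49 ± 0.19 with hypoxia (adjusted p = 0.0344), by 0.64 ± 0.19 with BB2-125 (adjusted p = 0.0147) and by 0.83 ± 0.19 with BB2-162 (1.77-fold, adjusted p = 0.00238). The hypoxia call ended with quantile normalization (adjusted p = 0.0666) and on leaving out replicate 2 (0.115) or 3 (0.107) of normoxic vehicle, or replicate 1 (0.0883) or 3 (0.168) of hypoxic vehicle. The BB2-125 call ended without hypoxic vehicle replicate 2 (adjusted p = 0.0975) or BB2-125 replicate 3 (0.0597).

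RBL2, which encodes p130, read 7.89, 7.91 and 7.86 in normoxic vehicle and 7.13, 7.57 and 6.99 in hypoxic vehicle. It read 6.97, 6.91 and 7.07 with BB2-125, 6.97, 6.43 and 6.47 with BB2-162, and 7.0, 7.17 and 7.24 with BB2-282. The arrays that stood high for RB1, hypoxic vehicle replicate 2 and BB2-162 replicate 1, stood high for RBL2 too. RBL2 fell by 0.65 ± 0.15 with hypoxia (1.57-fold, adjusted p = 0.00088) and by 0.61 ± 0.15 with BB2-162 (1.52-fold, adjusted p = 0.00379). With BB2-125 its change was -0.25 ± 0.15 (adjusted p = 0.242) and with BB2-282 it was -0.09 ± 0.15 (adjusted p = 0.778). For RB1 the change with BB2-282 was -0.35 ± 0.19 (95% interval -0.75 to 0.04, adjusted p = 0.267).

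**Figure D2:**
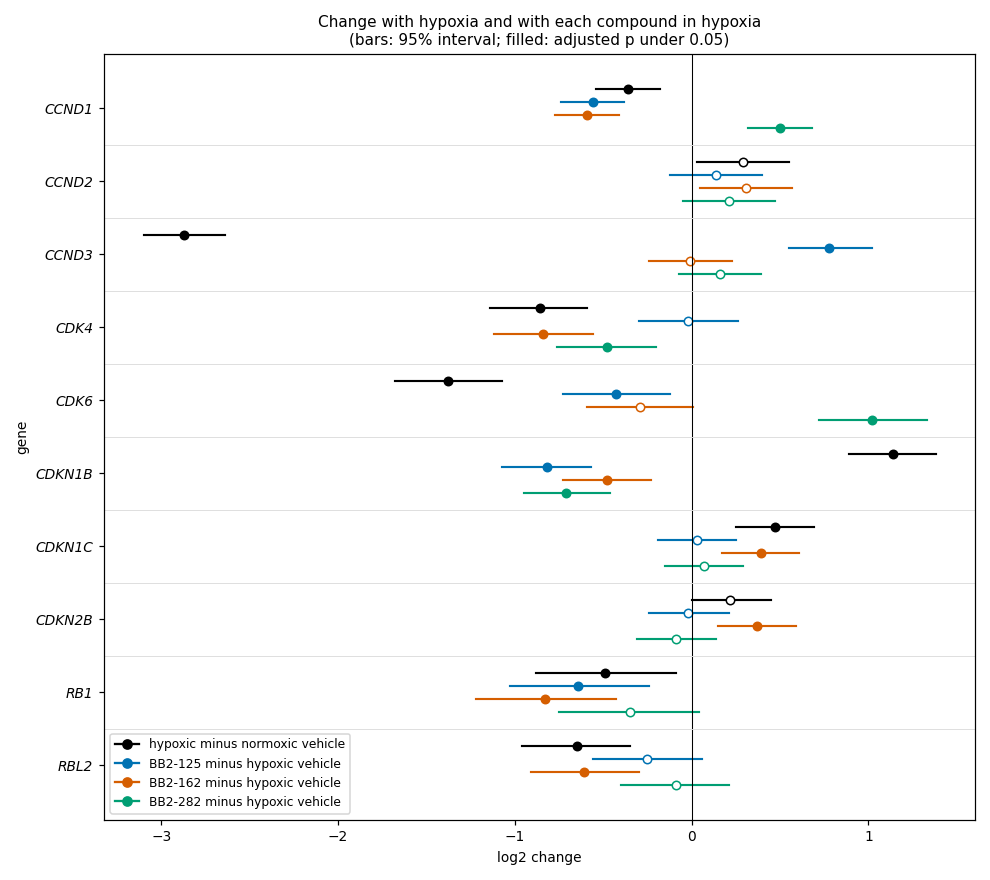
Log2 change (x axis) of each gene (y axis) with hypoxia and with each compound against hypoxic vehicle, with 95% intervals from limma and 3 arrays per group; filled points had an adjusted p under 0.05. The hypoxia change of CCND3 (-2.87) is the longest, CDKN1B is the gene whose points lie on opposite sides for hypoxia (1.14) and all compounds, and CCND1 and CDK6 rise with BB2-282 alone. All these changes use the hypoxic vehicle arrays, with opposite sign for hypoxia and for the compounds.

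The compounds were compared directly at the same dose and time, in 3 pairs. BB2-125 against BB2-162 differed in 5 of the 10 genes, 2 higher and 3 lower with BB2-125 (all genes: 26.1% called, 16.7% higher, 9.43% lower). BB2-125 against BB2-282 differed in 4, 2 higher and 2 lower (36.3% called, 18.7% higher, 17.6% lower). BB2-162 against BB2-282 differed in 6, 2 higher and 4 lower (35.8% called, 15.6% higher, 20.3% lower). Median centring moved the higher share of all called genes from 63.9% to 74.4% in the first pair and from 43.4% to 32.9% in the last.

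The widest gaps were in CCND1 and CDK6, where BB2-282 stood above both other compounds. CCND1 was 1.06 lower with BB2-125 than with BB2-282, as a difference of -1.06 ± 0.09 (2.09-fold, adjusted p = 2.45e-08), and the difference of BB2-162 from BB2-282 was -1.09 ± 0.09 (2.13-fold, adjusted p = 2.38e-08). CDK6 differed by -1.45 ± 0.14 between BB2-125 and BB2-282 (2.73-fold, adjusted p = 2.92e-07) and by -1.31 ± 0.14 between BB2-162 and BB2-282 (2.48-fold, adjusted p = 1.30e-06). Between BB2-125 and BB2-162 the difference was 0.03 for CCND1 (95% interval -0.15 to 0.21, adjusted p = 0.806) and -0.14 for CDK6 (-0.44 to 0.16, adjusted p = 0.491). These intervals bound the gap in signal between that pair without showing that the compounds act alike. CDK6 means were 5.97 with BB2-125 and 6.10 with BB2-162, under the 6.42 and 6.72 read there for CDKN2A. The part of low signal in these CDK6 differences was not tested.

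CCND3 and CDK4 set BB2-125 apart. CCND3 was higher with BB2-125 by 0.79 ± 0.11 than with BB2-162 (adjusted p = 5.44e-05) and by 0.62 ± 0.11 than with BB2-282 (adjusted p = 0.000186), and the difference of BB2-162 from BB2-282 was -0.17 (95% interval -0.40 to 0.07, adjusted p = 0.249). CDK4 was higher with BB2-125 by 0.82 ± 0.13 than with BB2-162 (adjusted p = 0.000198) and by 0.46 ± 0.13 than with BB2-282 (adjusted p = 0.0107; 0.40, adjusted p = 0.0533, without BB2-282 replicate 2). CDK4 differed by -0.37 ± 0.13 between BB2-162 and BB2-282 (adjusted p = 0.0399). That call ended in a fit of these groups alone (adjusted p = 0.0992) and without BB2-162 replicate 2 (0.0872), BB2-162 replicate 3 (-0.21, 0.235), BB2-282 replicate 1 (0.0835) or BB2-282 replicate 3 (0.136).

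The inhibitor genes differed mainly for BB2-162. CDKN2B was higher with BB2-162 than with BB2-282 by 0.46 ± 0.11 (adjusted p = 0.00259). Its means there were 6.67 and 6.22, where CDKN2A read 6.72 and 6.35. The part of low signal in the CDKN2B differences was not tested. BB2-125 minus BB2-162 gave -0.34 ± 0.12 for CDKN1B (adjusted p = 0.0403), -0.36 ± 0.11 for CDKN1C (adjusted p = 0.0185) and -0.39 ± 0.11 for CDKN2B (adjusted p = 0.0123). CDKN1C was higher with BB2-162 than with BB2-282 by 0.31 ± 0.11 (adjusted p = 0.0262). In fits of the compared groups alone these last 4 differences did not pass (adjusted p = 0.106 for CDKN1B, 0.0926 and 0.0804 for CDKN1C, 0.0609 for CDKN2B). The CDKN1B difference also ended after median centring (adjusted p = 0.112), without BB2-125 replicate 1 (0.0845), 2 (0.059) or 3 (0.12), and without BB2-162 replicate 1 (-0.21, 0.131). The CDKN1C difference between BB2-125 and BB2-162 ended without BB2-125 replicate 1 (adjusted p = 0.0806) or 2 (0.0539) and without BB2-162 replicate 2 (0.0715) or 3 (0.0948), and that between BB2-162 and BB2-282 without BB2-162 replicate 2 (0.101) or 3 (0.113) and without BB2-282 replicate 2 (0.0859) or 3 (0.0732). The CDKN2B difference between BB2-125 and BB2-162 ended without BB2-162 replicate 2 (adjusted p = 0.0636) or 3 (0.0512).

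Among the pocket protein genes, RBL2 was lower with BB2-162 than with BB2-282, at -0.51 ± 0.15 (adjusted p = 0.0108), a call that ended without BB2-162 replicate 2 (0.0606) or 3 (0.0527). BB2-125 minus BB2-162 gave 0.36 ± 0.15 for RBL2 (adjusted p = 0.0793) and 0.19 ± 0.19 for RB1 (adjusted p = 0.471). Without BB2-162 replicate 1 these became 0.53 (adjusted p = 0.00579) and 0.46 (adjusted p = 0.0247). BB2-162 minus BB2-282 gave -0.47 ± 0.19 for RB1 (adjusted p = 0.0573), and -0.75 (adjusted p = 0.000798) without that array. CCND2 did not pass in any pair, with differences of -0.17, -0.07 and 0.10 and intervals within -0.43 to 0.36.

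**Figure D3:**
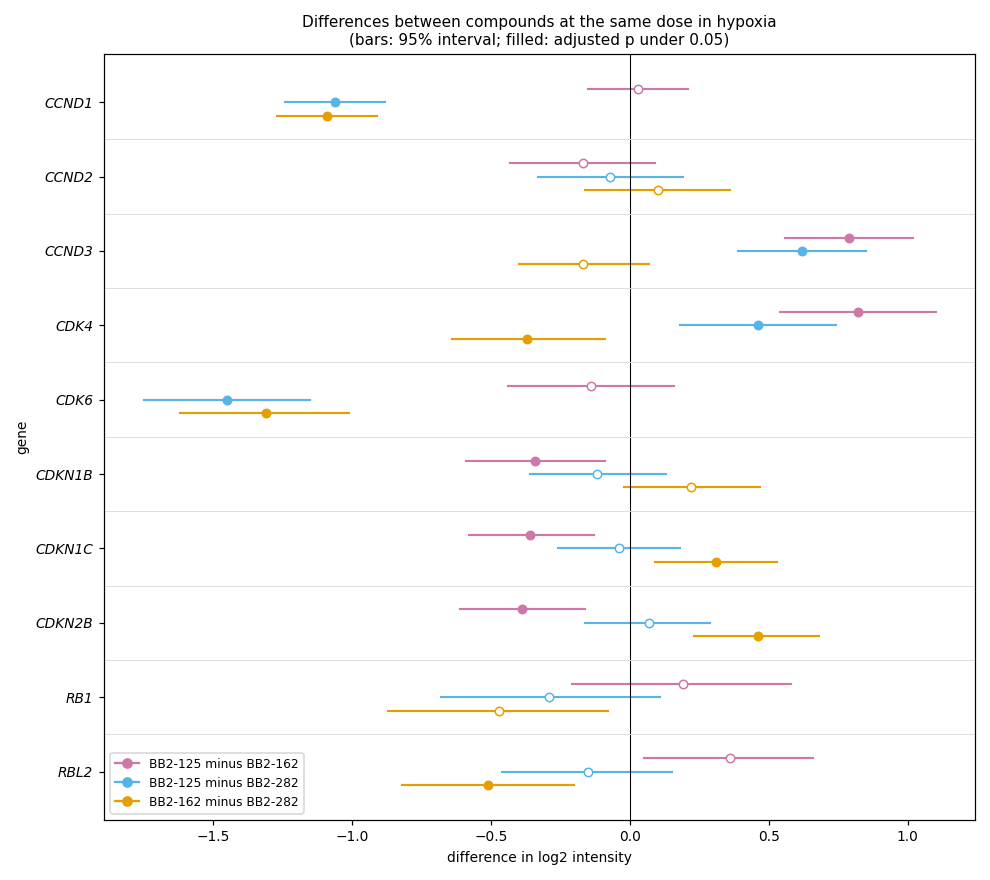
Difference in log2 intensity (x axis) between compounds at 10 µM in hypoxia for each gene (y axis), with 95% intervals from limma and 3 arrays per group; filled points had an adjusted p under 0.05. The points of CCND1 and CDK6 against BB2-282 lie between -1.45 and -1.06, and those of BB2-125 minus BB2-162 for the same genes lie near 0.

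Each compound group was also set against normoxic vehicle, whose 3 arrays enter the hypoxia comparison too. With BB2-125, 9 of the 10 genes were called, 3 higher and 6 lower (all genes: 62% called, 31.5% higher, 30.5% lower). With BB2-162 all 10 were called, 4 higher and 6 lower (76.8% called, 42.4% higher, 34.4% lower), and with BB2-282 8 were called, 3 higher and 5 lower (64.8% called, 33.4% higher, 31.4% lower). With BB2-162 the median of all genes was 0.14 and moved to 0.03 after median centring, and the 10 genes kept their calls there. CCND3 remained far below normoxic vehicle with each compound (-2.09, -2.87 and -2.71 with BB2-125, BB2-162 and BB2-282, each ± 0.11). CDK4 was lowest against it with BB2-162 (-1.71 ± 0.13), with BB2-282 at -1.34 ± 0.13 and BB2-125 at -0.89 ± 0.13. RB1 was -1.13 ± 0.19 with BB2-125, -1.31 ± 0.19 with BB2-162 and -0.84 ± 0.19 with BB2-282, each called.

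For CDK6 the distance from normoxic vehicle was -1.80 ± 0.14 with BB2-125 and -1.66 ± 0.14 with BB2-162, but -0.35 ± 0.14 with BB2-282 (adjusted p = 0.0399). That last call ended with quantile normalization (adjusted p = 0.112), in a fit of the compared groups alone (0.0542), and on leaving out replicate 2 (0.195) or 3 (0.155) of normoxic vehicle, or replicate 1 (0.171) or 2 (0.0803) of BB2-282. Leaving out replicate 1 of normoxic vehicle made it -0.55. CDKN1B stayed above normoxic vehicle by 0.32 ± 0.12 with BB2-125 (adjusted p = 0.026), 0.66 ± 0.12 with BB2-162 (adjusted p = 7.79e-05) and 0.43 ± 0.12 with BB2-282 (adjusted p = 0.00377). The BB2-125 difference did not pass after median centring (0.26, adjusted p = 0.0954) or on leaving out replicate 2 (0.0613) or 3 (0.0803) of normoxic vehicle, or replicate 1 (0.0582) or 2 (0.0776) of BB2-125.

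The genes that act with and under these 10 were read from 6 lists with 92 genes, of which 88 were tested. Over all genes, 28.2% were called higher and 29.4% lower with hypoxia, and 13.3% and 15% with BB2-125. These shares were 15.7% and 20.4% with BB2-162, and 5.65% and 7.94% with BB2-282. List counts near these shares say nothing particular about a list. The lists too were chosen with earlier results of these data known. Of 19 E2F target genes, mostly parts of the replication machinery, 18 fell with hypoxia and CDT1, a licensing factor chosen here after its value was seen, rose by 0.29 ± 0.11. The median over the list was -1.40. CDC6, which loads the replicative helicase, fell by 4.23 ± 0.15, and the helicase subunit genes MCM6 and MCM3 changed by -3.20 ± 0.10 and -2.83 ± 0.12. BB2-125 raised 13 of the 19 (median 0.47), with CDC6 up by 1.25 ± 0.15, GINS2 by 1.05 ± 0.12 and ORC1 by 0.89 ± 0.10, and the other 6 did not pass. BB2-162 lowered 8 and raised 1 (median -0.24), with TYMS, the thymidylate synthase gene, down at -1.35 ± 0.11 and RRM2, a ribonucleotide reductase subunit gene, at -1.20 ± 0.15; 5 were lower without hypoxic vehicle replicate 1 or without BB2-162 replicate 3. BB2-282 lowered 2 and raised 1 (median 0.09), with PCNA, the sliding clamp gene, at -1.01 ± 0.11.

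The RB family, E2F and DREAM list, which holds the genes of the complexes around RB and p130, fell in 13 of 18 cases with hypoxia and rose in 1 (median -0.91). TFDP1, the E2F partner gene, fell by 2.54 ± 0.12, MYBL2 fell by 2.22 ± 0.10 and LIN37, a DREAM subunit gene, rose by 1.34 ± 0.11. RBL1, which encodes the third pocket protein p107 and was chosen after its value was seen, fell by 1.62 ± 0.13. BB2-125 raised 5 and lowered 2 (median 0.08), with LIN9 at 1.03 ± 0.13, MYBL2 at 0.78 ± 0.10 and LIN37 at -0.70 ± 0.11. BB2-162 raised 2 and lowered 4 (median 0.06), with TFDP1 at -1.19 ± 0.12 and E2F5 at -0.89 ± 0.13. Those BB2-162 counts lay near the shares over all genes (15.7% higher, 20.4% lower), whose median was also 0.06. BB2-282 raised 2 and lowered 4 (median 0.02), with E2F5 at -0.80 ± 0.13 and E2F3 at 0.64 ± 0.15, a call that ended without BB2-282 replicate 2. Leaving out any 1 array of hypoxic vehicle replicates 1 and 2 or of BB2-282 left 1 or 2 lower.

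Of 9 genes for cyclin E, cyclin A, CDK2 and the other inhibitors, 6 fell and 2 rose with hypoxia (median -1.26). The cyclin genes CCNE1 (-2.25 ± 0.12) and CCNA2 (-2.25 ± 0.13) fell. CCNE2 fell by 2.71 ± 0.13 to a level under the dim level, and counted from that level it was at least 5.16-fold lower. CDKN1A, which encodes p21 and was chosen after its value was seen, rose by 1.80 ± 0.11. BB2-125 raised 3 of the 9, namely CDKN3 (1.0 ± 0.18), CDK2 (0.49 ± 0.12) and CCNE1 (0.47 ± 0.12). BB2-162 lowered CCNA2 (-1.08 ± 0.13) and CDKN3 (-0.87 ± 0.18) and raised CDKN2A, described above. With BB2-282, 0 of the 9 were called by limma, and 2 had an unadjusted p under 0.05.

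The list of the CDK-activating kinase and of cyclin D-CDK assembly also held CDK1 and CCNC, which are part of neither. Hypoxia raised 2 of the 7 genes and lowered 3, namely MNAT1, CDK1 and CCNC. CDK7, the kinase that activates CDK4 and CDK6, rose by 1.0 ± 0.11 and its cyclin gene CCNH by 0.69 ± 0.13, while CDK1, the mitotic kinase, fell by 3.16 ± 0.15. With quantile normalization or without hypoxic vehicle replicate 3, 1 of the 7 was lower. CDK7 rose with BB2-125 (0.76 ± 0.11) and with BB2-162 (0.44 ± 0.11). BB2-125 raised 3 and lowered 1. BB2-162 raised 2, CDK7 and CCNH, and lowered 2, CCNC (-1.19 ± 0.15) and CDK1 (-0.98 ± 0.15). CDK1 fell there to a mean under the dim level (at least 1.35-fold lower from it). BB2-282 lowered 3, CCNH (-0.44 ± 0.13), MNAT1 (-0.57 ± 0.14) and CCNC (-0.51 ± 0.15), all of which lost their calls without hypoxic vehicle replicate 1 or 2 or BB2-282 replicate 1.

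**Figure D4:**
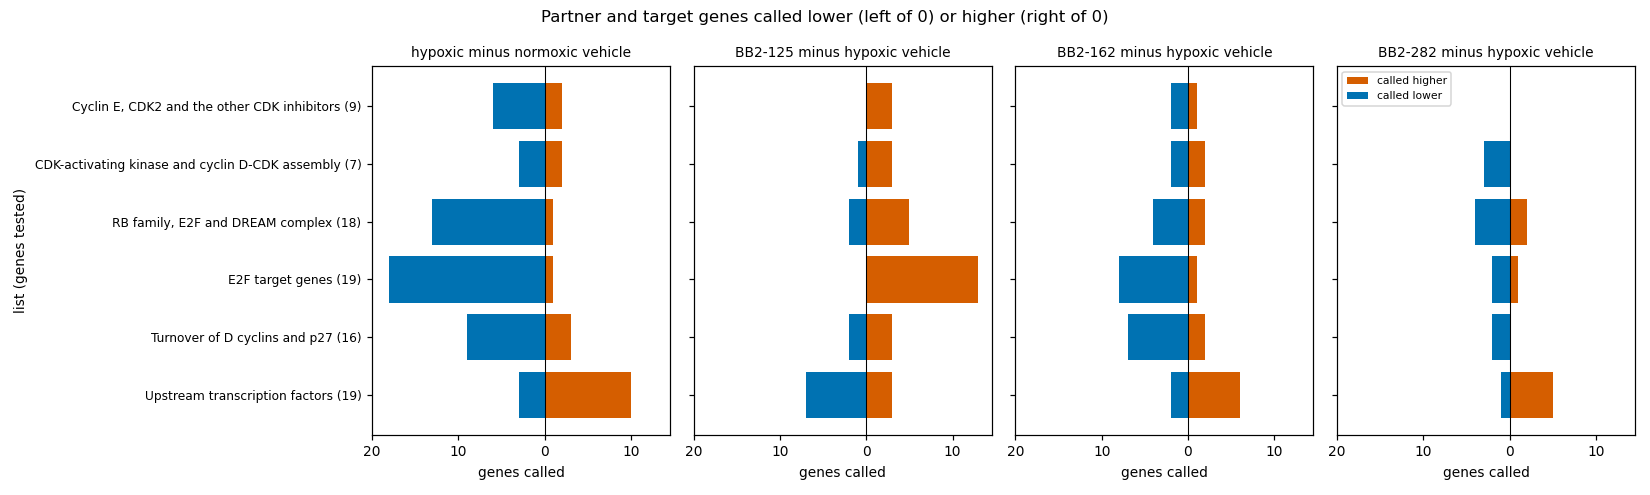
Number of genes called lower (left of 0) and higher (right of 0) in each list (y axis, genes tested in brackets) with hypoxia and with each compound against hypoxic vehicle (x axis, genes). E2F target genes extend to 18 lower with hypoxia, 13 higher with BB2-125 and 8 lower with BB2-162. Over all genes, 29.4% were lower with hypoxia, 13.3% higher with BB2-125 and 20.4% lower with BB2-162.

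The 10 genes were also compared by pattern, as the root mean square (RMS) difference of their mean-centred log2 values over the 15 arrays, a description with no test since all genes share these arrays. The closest members were CCND2 and CDKN1C (0.141), CDKN1C and CDKN2B (0.147), CCND2 and CDKN2B (0.168) and RB1 and RBL2 (0.180). CCND1 and CDK6 differed by 0.384. For the 4 members with the widest range of group means, the 3 nearest of all tested genes were named. They were EMP2 (0.169), MCM6 (0.173) and ELOVL6 (0.180) for CCND3, and CKAP2L (0.238), ALDH1B1 (0.245) and ROBO1 (0.263) for CDK6. For RB1 they were ZNF33A (0.109), ERBIN (0.114) and AHCYL1 (0.139). For CDK4 they were NRDC (0.106), TSPAN31 (0.108) and EIF2AK1 (0.113). TSPAN31 overlaps CDK4 in the RefSeq gene table, and the sources used here do not tell whether their probes share transcripts. The same table places CCND2-AS1, CDK6-AS1 and CDKN2B-AS1 over the genes they are named for, LPAR6 over RB1 and AKTIP over RBL2.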

How the data were processed

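RNA of 15 A549 cultures was hybridised to Affymetrix whole-transcript arrays, 1 per culture. The authors deposited 1 intensity per probe set and array on a linear scale, for 28869 probe sets. RMA, which corrects background, normalises between arrays and summarises probes, is named in the submitters' processing notes; its version and the genome build are not given in the sources used here. The log2 of the deposited intensity was taken here.

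The probe table gave 1 symbol for 19310 probe sets. The brightest per gene was kept (18377 genes), and genes above the array's 25th percentile (log2 4.57 to 4.90) on at least 3 arrays were tested (16005; 2372 left out). No 2 arrays were identical (0 pairs, highest correlation 0.9950).

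All 15 arrays entered 1 group-means fit in limma 3.58.1 (R 4.3.3; 10 residual and 7.96 prior degrees of freedom). P-values were adjusted by Benjamini-Hochberg over all tested genes within each of 10 comparisons, and calls made at 0.05. The scripts were tested on simulated data.

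The members and lists were chosen with earlier results of these data known. All 10 members are named; per list, up to 3 called genes of lowest p; and the 3 nearest genes for 4 members. Replicate numbers passed a pairing check (every same-number correlation of deviations over 0.1) in 1 of 10 pairs of groups, hypoxic vehicle and BB2-125 (0.19 to 0.33). Alternatives were median centring, quantile normalization, other dim filters, the mean of a gene's probe sets, fits of the compared groups alone, an intensity trend, array weights, a replicate block and leaving out each array. Promoters and overlaps came from RefSeq tables of GRCh38.p14.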

Additional observations from a re-analysis of the deposited data

How the results depend on the processing

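Of 100 member results (10 genes in 10 comparisons), 66 were called, 51 of them under every alternative, and 15 lost the call under some. Most lost calls lay within a change of 1 log2 unit and came with 1 array left out. With all arrays in, the number of members called moved by over 1.5 times in 1 case, BB2-125 minus BB2-162, where a fit of these groups alone called 2 instead of 5. With 1 array left out it moved by over 1.5 times in 3 comparisons, where the counts ran from 3 to 5 for BB2-125 minus hypoxic vehicle, 3 to 6 for BB2-125 minus BB2-162 and 3 to 7 for BB2-162 minus BB2-282. The cause was not tested. No called change reversed. Uncalled changes that crossed 0 were CCND3 with BB2-162 (0.09) and CCND1 in BB2-125 minus BB2-162 (-0.11) under quantile normalization, and CDKN1C in BB2-125 minus BB2-282 (0.02) with array weights. With 1 array left out, BB2-125 against hypoxic vehicle ran from -0.11 to 0.05 for CDK4, -0.03 to 0.08 for CDKN1C and -0.04 to 0.02 for CDKN2B. CCND3 with BB2-162 ran from -0.10 to 0.05 and RBL2 with BB2-282 from -0.22 to 0.08. BB2-125 minus BB2-162 ran from -0.01 to 0.06 for CCND1, and BB2-125 minus BB2-282 from -0.13 to 0.00 for CCND2 and -0.10 to 0.00 for CDKN1C. CCND2 gave no value with the filter at the array median.

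The replicate block changed no member's call. For BB2-125 against hypoxic vehicle the block left 5 members called, with 4444 of all genes against 4539 without it, and the block fitted to these 2 groups only, added after seeing the data, gave 5 members and 5352 genes. Same-number correlations over the 10 pairs of groups ran from -0.43 to 0.58.

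Counts over all genes moved by over 1.5 times in fits of the compared groups alone (BB2-162 minus hypoxic vehicle, 3494 against 5780; BB2-125 minus BB2-162, 2582 against 4182), with array weights (BB2-282 minus hypoxic vehicle, 4193 against 2176), and with 1 array left out (BB2-282 minus hypoxic vehicle, 1222, 1352 and 1258 without hypoxic vehicle replicates 1 and 2 and BB2-282 replicate 2; BB2-125 minus BB2-162, 2645 without BB2-162 replicate 3). The lists, put under the same alternatives after seeing the data, gave 68 results for named genes, of which 59 kept their call, 9 lost it under some and 0 reversed. Of these 9, 7 were with BB2-282. Signal near the dim level limits CCND2, CDKN2B and CDK6, and 3 arrays per group limit small changes.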

Other observations

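Genes for the turnover of D cyclins and p27 changed mainly downward in hypoxia, with 9 of 16 lower and 3 higher (median -0.41). Over all genes, 28.2% were called higher and 29.4% lower with hypoxia, and 13.3% and 15% with BB2-125. The shares were 15.7% and 20.4% with BB2-162, and 5.65% and 7.94% with BB2-282. SKP2, the ubiquitin ligase subunit that marks p27 for destruction, fell by 2.60 ± 0.15, and its log2 mean was 8.94 in normoxic and 6.34 in hypoxic vehicle. FBXO4, an F-box gene linked to cyclin D1, fell by 0.95 ± 0.13 and the cullin gene CUL4B rose by 0.85 ± 0.13. With BB2-125, 3 rose and 2 fell, and CKS2 (1.0 ± 0.13) and CKS1B (0.85 ± 0.13), whose product helps SKP2 bind p27, rose while CUL4A fell (-0.68 ± 0.13). SKP2 itself, chosen after its value was seen, rose by 0.56 ± 0.15. With BB2-162, 7 fell and 2 rose (median -0.19), with CUL1 at -1.0 ± 0.15 and RBX1 at -0.89 ± 0.13, the scaffold and RING subunit genes of that ligase, and CUL4A at -0.74 ± 0.13. With BB2-282, 2 fell, RBX1 (-0.71 ± 0.13) and CKS2 (-0.45 ± 0.13), the latter uncalled with quantile normalization or on leaving out hypoxic vehicle replicate 1 or BB2-282 replicate 3.

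Of 19 transcription factor genes known to act on members, 10 rose and 3 fell in hypoxia (median 0.51). The shares over all genes given for the turnover list apply to these counts too. JUN, which acts on CCND1, rose by 3.06 ± 0.14, SMAD3, which acts on CDKN2B, rose by 2.36 ± 0.13 and FOXM1 fell by 1.91 ± 0.12. With BB2-125, 3 rose and 7 fell, with FOXM1 at 1.26 ± 0.12, MYC at 0.75 ± 0.10 and SMAD3 at -0.94 ± 0.13, and 4 fell without BB2-125 replicate 1. With BB2-162, 6 rose and 2 fell, and MYC (0.83 ± 0.10), FOXO3 (0.60 ± 0.12) and FOXO1 (0.49 ± 0.10) were among those that rose. FOXO factors are activators of CDKN1B, and a link between their transcripts and CDKN1B was not tested. With BB2-282, 5 rose and 1 fell, with STAT5A at 0.52 ± 0.10, FOXM1 at 0.58 ± 0.12 and KLF6 at 0.54 ± 0.12, and 3 rose without hypoxic vehicle replicate 1, BB2-282 replicate 2 or BB2-282 replicate 3.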
